A study of Rattus norvegicus with 25 samples.

Results

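Cytosolic ribosomal proteins, the protein part of the 80S ribosome, were followed here in the hippocampus of rats after a brain injury or a sham operation. Members were taken by gene symbol, as Rpl or Rps followed by a number (with an optional a, x, l or y ending), together with Rplp0, Rplp1, Rplp2 and Rpsa. The rule found 100 of the 34322 genes listed, and 92 of them passed the filter on low counts, beside 21064 genes tested in all. These were 54 genes named for the large subunit and 38 named for the small subunit, copies and paralogs included. The rule used names only and no measured value, but the members were chosen with earlier results of these data known.

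PolyA RNA of the hippocampus was sequenced from male Sprague-Dawley rats that were adult and 6-7 weeks old. TD-CCI rats had a controlled cortical impact (CCI, a piston blow to the exposed cortex above the hippocampus) and a thymus supplement, TCF-CCI rats the impact and thymus cytosolic factor, TNF-CCI rats the impact and thymus nuclear factor, Vehicle-CCI rats the impact and vehicle, and Vehicle-sham rats vehicle and no impact. TNF is the supplement's name here and not the cytokine. Each group had 5 libraries of 27.3 to 44.9 M counts (M, 1e6), and no label says whether each is from its own animal: a p-value then reflects library-to-library spread, which may be technical. Dose and time after injury are unknown here.

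Each ribosome holds a single copy of most of these proteins, and cells make them in step. In mammals their mRNAs are short, abundant and long-lived, and most begin with a C and a run of pyrimidines, the 5' terminal oligopyrimidine (TOP) tract, through which mTOR, Larp1 and related factors set their translation. In neurons they are translated in the cell body and, for a part of them, in dendrites and axons. Levels below are CPM (counts per 1e6 counts after TMM scaling), and levels are compared between genes only as CPM per kb of the Length column, the summed exon length of a gene in the deposited table.

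Start sequences are shown for 7 members that the results turn on: 3 that fell in the comparison of all CCI libraries with sham (Rpl36a, Rpl22l1, Rps10), the paralog Rpl22, Rpl31, the likely parent by name of the called copy Rpl31l4, Rplp0 as the member of smallest spread, and Rps4x, which ran opposite to most. Each run of 30 bases has 12 bases before and 18 from the annotated start in RefSeq, build GRCr8, and capitals mark a C at the start with at least 4 pyrimidines after it.
Rpl36a, chrX:102059437-102059466, plus strand: cctataaacttccgttgctgctctagcctc
Rpl22l1, chr2:113683184-113683213, plus strand: ccgtggatatccggttccgagttgcgcagc
Rps10, chr20:5700727-5700756, minus strand: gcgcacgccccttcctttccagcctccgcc
Rpl22, chr5:168117949-168117978, plus strand: gtgcgcccccctCCCTTTCTgcctcctctg
Rpl31, chr9:49143099-49143128, plus strand: caatccctcgcgCCTTTCCTTTCCaacttg
Rplp0, chr12:46718373-46718402, minus strand: cgcaccgcacttCTCTCgccaggcgtcctc
Rps4x, chrX:71342904-71342933, minus strand: agcgcgcgcagcctccgaccctaatttctt
Of the 92 tested members, 65 matched a start by symbol and chromosome, and 21 of these 65 (32.3%) had the run exactly at the start, against 2.63% of all 33469 starts in the table. Searched within 10 bases either side of the start, on the gene's own strand, it was found in 48 of the 65 (73.8%) and in 28.9% of all starts. In Rps10 an unbroken run of pyrimidines spanned the annotated start, which lies on a T. The 21 members with the run at the start had a median SD over libraries of 0.45 on the log2 scale, against 0.41 in the other 44, and the SDs overlapped (0.20 to 0.77 and 0.21 to 0.96).

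Ribosomal protein mRNAs were abundant in this tissue. Mean levels of the tested members ran from 0.237 CPM in Rps15al2 to 1434 CPM in Rps7, with a median of 237 CPM, and 82 of the 92 reached 10 CPM. Per length, the 5 highest were Rpl26 with 2564 ± 2383 CPM per kb (SD, n = 25 libraries), Rplp1 with 2277 ± 1042, Rps7 with 2196 ± 1489, Rpl31 with 2112 ± 1594 and Rpl41, the smallest ribosomal protein, with 1968 ± 833 CPM per kb. The distances between these 5 were smaller than their spread over libraries, so their order is not resolved. Rplp0, the base of the stalk that recruits translation factors, stood at 265 ± 38.2 CPM per kb. Its stalk partner Rplp1 was several times higher and Rplp2 was lower, at 108 CPM per kb, on this per-length scale.

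Tissue-restricted paralogs were near the floor. Rpl3l, found in heart and skeletal muscle, averaged 0.242 CPM per kb, beside 279 for Rpl3, which lines the peptidyl transferase centre. Rpl10l, a testis copy of the X-linked Rpl10, averaged 0.693 CPM per kb, beside 311 for Rpl10. Rpl39l, another testis paralog, averaged 1.98 CPM per kb, beside 287 for Rpl39. Rpl22l1 and Rpl36al were expressed at 177 and 157 CPM per kb, beside 272 for Rpl22 and 466 for Rpl36a, and Rpl7l1 at 24.3. Rps27l, a p53-responsive paralog, averaged 9.01 CPM per kb, beside 1298 for Rps27. The 8 members that did not pass the filter (Rpl22l2, Rps12l3, Rps19l1, Rpl31l1, Rps15al1, Rpl30l1, Rpl34l1 and Rps17l) never exceeded 14 counts in a library. Among the tested members, 11 have a single exon block (Rpl37 and 10 numbered or "l" copies), and counts of such copies can be split with a multi-exon parent, so their values are uncertain. Rps19, Rps9, Rpl35a and Rpl37a are not named in the table, which lists Rps19l2, Rps9l1 and Rpl35al1.

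The largest difference between libraries lay inside the sham group. The members' CPM added up to 24014 to 33463 in TD-CCI libraries, 25722 to 35828 in TCF-CCI, 22232 to 46247 in TNF-CCI and 31558 to 40649 in Vehicle-CCI. In Vehicle-sham 1 to 5 the sums were 23669, 76757, 65948, 35083 and 18286. The highest 2 sums and the lowest of all 25 libraries were thus sham libraries, and the 20 CCI libraries lay between them. The mean sum was 31262 ± 6520 CPM in CCI libraries (SD, n = 20) and 43949 ± 26023 CPM in Vehicle-sham libraries (n = 5). TMM factors were 0.644 in Vehicle-sham 2 and 0.805 in Vehicle-sham 3, which raised their sums. As an unscaled share of counts, members made up 4.94% and 5.31% there, and 4.68% in TNF-CCI 2. This share averaged 3.54 ± 1.53% for sham, 3.70 ± 0.40% for Vehicle-CCI and 3.23 ± 0.61% for all CCI libraries (SD). With mitochondrial rRNA left out of the total, these means were 4.19%, 4.03% and 3.48%. The order of the sham and Vehicle-CCI means thus depended on the scale. Bulk tissue cannot tell fewer cells of a type from less RNA per cell.

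**Figure D1:**
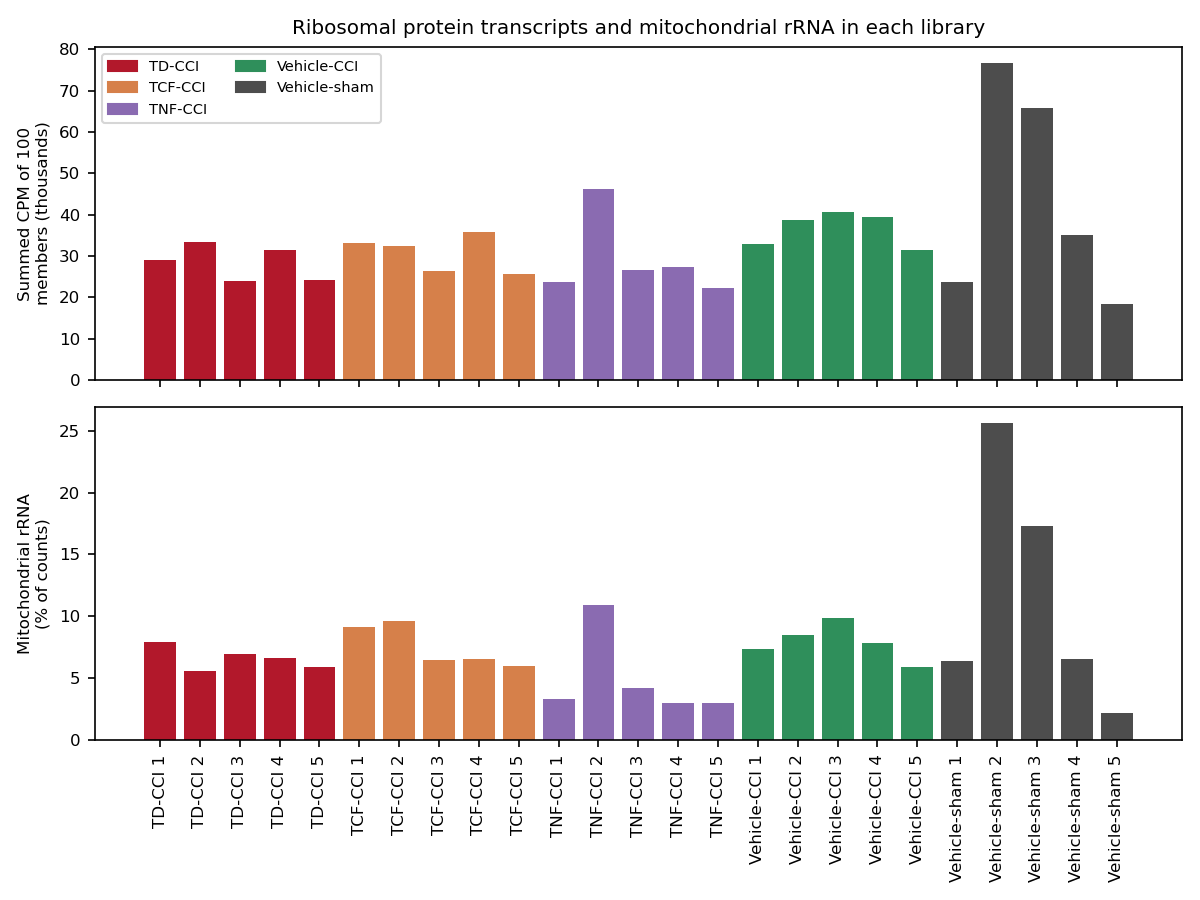
Bars give, for each library, the summed CPM of the 100 members divided by 1000 (top) and the share of counts on both mitochondrial rRNA genes in percent (bottom), coloured by group. The members' sum was 76757 CPM in Vehicle-sham 2, 65948 in Vehicle-sham 3 and 46247 in TNF-CCI 2, the 3 libraries of highest mitochondrial rRNA share.

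The share of counts on mitochondrial rRNA was high and low in the same libraries. It was 10.9% in TNF-CCI 2, and 25.6% in Vehicle-sham 2 and 17.3% in Vehicle-sham 3. It was 2.18% in Vehicle-sham 5, the library of lowest member level, and 6.37% and 6.58% in Vehicle-sham 1 and 4. In the other 19 CCI libraries it lay between 2.95% and 9.89%. Within the TNF-CCI group, replicate 2 was at 10.9% and the other 4 between 2.95% and 4.17%, and the members' sums were 46247 CPM against 22232 to 27396 CPM. The part of RNA quality or selection in the members' levels was not tested. Of the markers below none was at 0 in a group. Summed over 4 of 4 markers, astrocytes ran from 2184 to 10196 CPM over the CCI groups and from 2159 to 3460 CPM in Vehicle-sham, and microglia, over 6 of 6, from 127 to 385 CPM over the CCI groups and from 95.8 to 140 CPM in Vehicle-sham. Hippocampal neurons, over 6 of 6, ran from 2122 to 5692 CPM over the CCI groups and from 3457 to 6712 CPM in Vehicle-sham. The part of cell makeup in the members' levels was not tested.

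Member by member, the same libraries set the extremes. Of the 92 tested members, 56 were highest in Vehicle-sham 2 and 20 in Vehicle-sham 3, while 45 were lowest in Vehicle-sham 5 and 15 in TD-CCI 1. Over all tested genes, 21.8% were highest in Vehicle-sham 2 and 4.21% in Vehicle-sham 3, while 3.97% were lowest in Vehicle-sham 5 and 2.95% in TD-CCI 1. Vehicle-sham 2 was extreme in both directions: 31.3% of all genes were lowest there, and 3 of the 92 members. The first principal component held 68.9% of the variance of the 92 members and 25.1% of that of all tested genes. On it 86 members had the same sign, led by Rpl39l, Rpl36a, Rpl26 and Rps27a, the fusion of ubiquitin with a small-subunit protein. Rps4x and Rps4y2 were among the other 6.

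**Figure D2:**
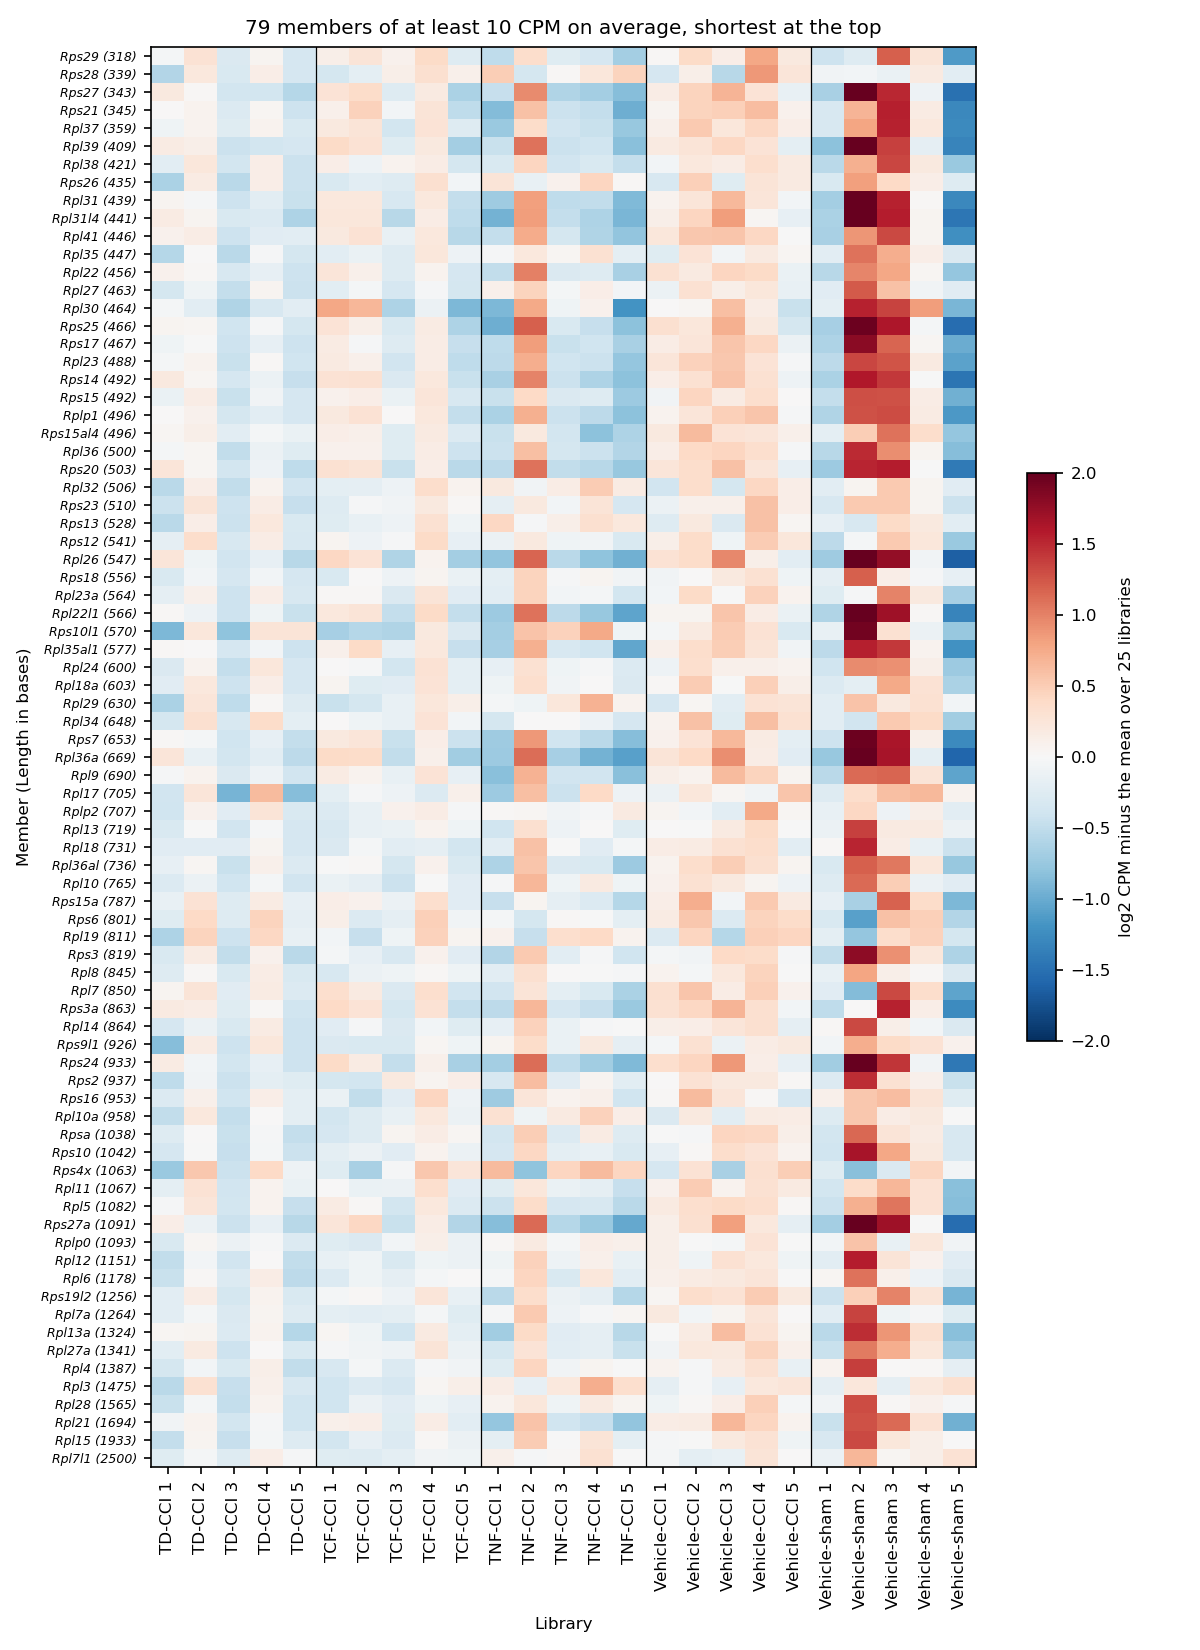
Rows are 79 of the 82 members of at least 10 CPM on average, ordered by Length (in brackets, bases), and columns are the 25 libraries by group; colour is log2 CPM (with 0.1 added) minus the member's mean over libraries, clipped at 2. Vehicle-sham 2 and 3 and TNF-CCI 2 are red in most rows and Vehicle-sham 5 is blue, most of all among short members, while Rps6, Rpl19 and Rps4x are blue in Vehicle-sham 2.

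TNF-CCI 2 and Vehicle-sham 2, 3 and 5 stood apart from the rest of their groups, with several members in common at their extremes. Against the mean of the other 4 TNF-CCI libraries, 70 of the 82 members of at least 10 CPM were higher in TNF-CCI 2, by 0.65 at the median on the log2 scale and by up to 1.98 (Rpl36a). Against the mean of Vehicle-sham 1 and 4, 71 of the 82 were higher in Vehicle-sham 2, by 1.20 at the median and by up to 3.50, again in Rpl36a. In Vehicle-sham 3, 76 were higher, by 0.80 at the median, and in Vehicle-sham 5 only 5 were higher and the median was -0.58. Of all 11107 genes of at least 10 CPM, 40.1% were higher in TNF-CCI 2 (median -0.12) and 39.5% in Vehicle-sham 2 (-0.24). In Vehicle-sham 3 it was 44.1% (-0.05) and in Vehicle-sham 5 60.8% (0.05). Rpl36a, Rps27a, Rpl26, Rpl22l1 and Rps24 differed by 1.80 to 1.98 in TNF-CCI 2, by 2.51 to 3.50 in Vehicle-sham 2 and by 1.80 to 2.14 in Vehicle-sham 3, and by -1.24 to -1.03 in Vehicle-sham 5. Rps4x differed by -1.33 in TNF-CCI 2 and by -0.93 in Vehicle-sham 2.

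Across the 82 members, the differences in TNF-CCI 2 and in Vehicle-sham 2 had a Spearman correlation of 0.73, and those in TNF-CCI 2 and in Vehicle-sham 3 of 0.85. With Vehicle-sham 5 the correlation of TNF-CCI 2 was -0.75. Over the 11107 genes of at least 10 CPM the same 3 values were 0.42, 0.65 and -0.34. Within the sham group, where the differences share the mean of Vehicle-sham 1 and 4, Vehicle-sham 2 had weaker values across the members, 0.51 with Vehicle-sham 3 and -0.33 with Vehicle-sham 5, while Vehicle-sham 3 and 5 had -0.85. The TNF-CCI and sham differences have no library in common, but genes are not independent replicates, and no p is given.

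Length sorted the members in some of these libraries and not in others. In Vehicle-sham 3, the deviation from a member's mean over the 25 libraries had a median of 1.31 among the 22 members under 500 bases, 0.53 among the 41 of 500 to under 1000 bases and 0.26 among the 19 of 1000 bases and over. In Vehicle-sham 5 the same medians were -1.10, -0.58 and -0.29. In Vehicle-sham 2 they were 1.25, 0.80 and 1.15, so long members were about as high there as short ones. The Spearman correlation between Length and the difference from Vehicle-sham 1 and 4 over the 82 members was -0.47 in Vehicle-sham 3, 0.41 in Vehicle-sham 5 and -0.12 in Vehicle-sham 2. In TNF-CCI 2, against the rest of its group, it was -0.30. Over all 11107 genes of at least 10 CPM the same correlation was -0.12 in Vehicle-sham 3 and 0.03 in Vehicle-sham 5. It was -0.35 in Vehicle-sham 2 and -0.07 in TNF-CCI 2. Vehicle-sham 2 thus had the strongest length trend of these libraries over all genes, though not among the members.

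**Figure D3:**
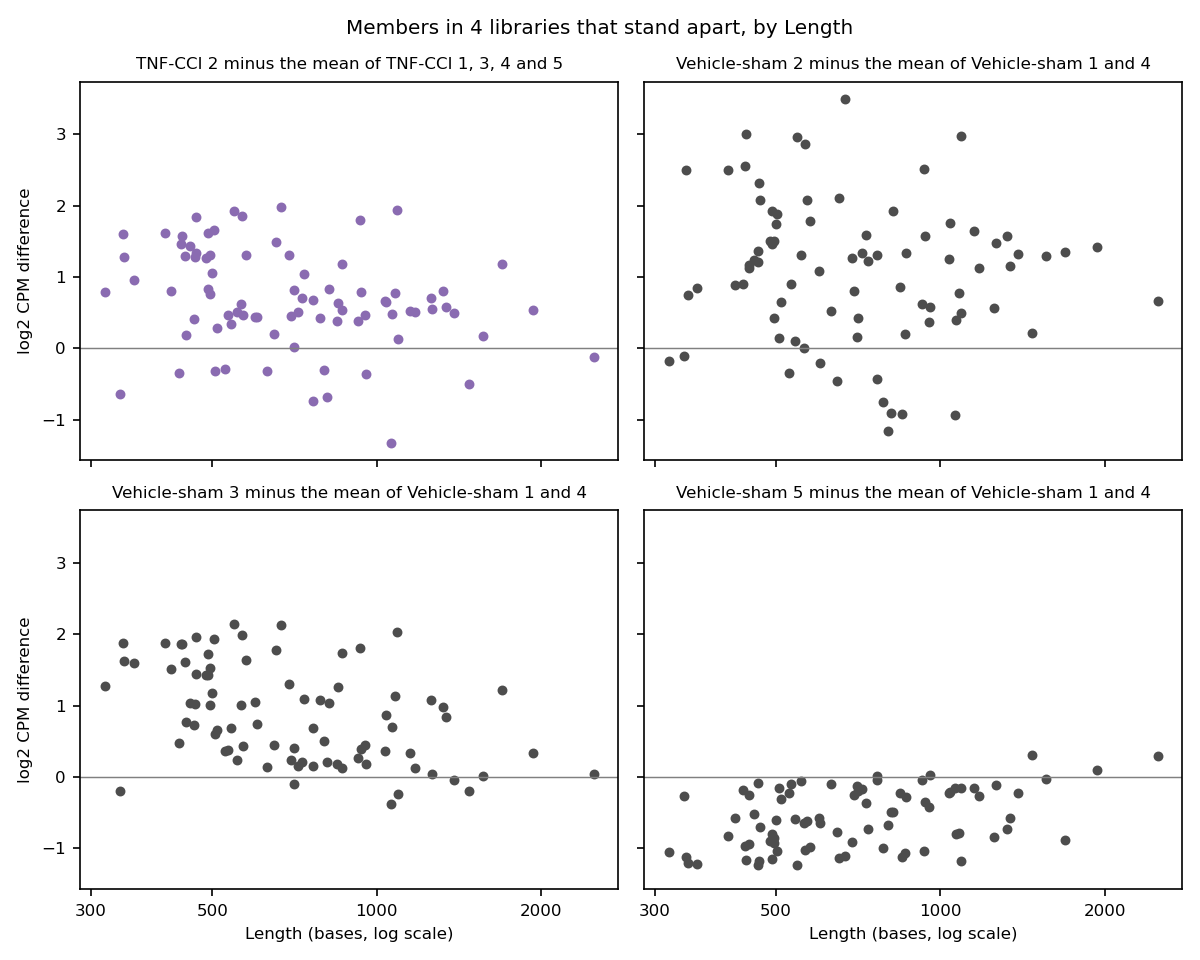
Points are the 82 members of at least 10 CPM on average; the horizontal axis is Length in bases on a log scale and the vertical axis the log2 CPM difference between the named library and the mean of the named libraries of its own group. Short members stand highest in Vehicle-sham 3 and lowest in Vehicle-sham 5, while in Vehicle-sham 2 members of all lengths spread from -1.17 to 3.50.

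The spread over the 25 libraries was also larger in short members. The median SD of log2 CPM was 0.58 under 500 bases, 0.38 from 500 to under 1000 bases and 0.37 at 1000 bases and over. Over the 92 tested members Length and SD had a Spearman correlation of -0.33, and over all tested genes of -0.18. Exceptions stood at both ends. The 3 shortest members, Rps29 (318 bases), Rps28 (339) and Rps27 (343), had SDs of 0.47, 0.34 and 0.77. The 3 longest, Rpl7l1 (2500 bases), Rpl15 (1933) and Rpl21 (1694), had SDs of 0.21, 0.36 and 0.55. The smallest SDs were those of Rplp0 (0.20), Rpl7l1 (0.21) and Rplp2 (0.24), and the largest those of Rpl39l (1.68), Rpl36a (0.96) and Rps4y2 (0.95), of which Rpl39l and Rps4y2 have few counts. For comparison, in the fifth of tested genes with the shortest Length, which holds 88 of the members, the median deviation was 0.19 in Vehicle-sham 2 and 0.11 in Vehicle-sham 3. In the fifth with the longest Length it was -0.40 in Vehicle-sham 2 and -0.02 in Vehicle-sham 3.

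The study set injury and the supplements against sham, and across all 4 CCI groups 5 members fell and none rose. The 5 were Rps18l1, Rpl31l4, Rps10, Rpl22l1 and Rpl36a, tested with edgeR's quasi-likelihood test and a Benjamini-Hochberg adjusted p under 0.05. Among all 21064 genes 3.68% were called lower and 2.24% higher, so 5 of 92 is near the background. At an unadjusted p under 0.05, 43 members were lower and 0 higher, where 15% of all genes were lower and 9.68% higher. The median log2 fold change was -0.38 over the 92 members, 81 of them below 0, and 0.01 over all tested genes. The 5 calls lay just under the threshold, and leaving out 1 library moved their number by over 1.5 times in 18 of 25 fits. It was 0 without TCF-CCI 1 or 3, TD-CCI 3, TNF-CCI 5, Vehicle-CCI 1, or Vehicle-sham 2 or 3, and 1 or 2 without TD-CCI 1 or 5, TCF-CCI 5, TNF-CCI 1, 3 or 4, or Vehicle-CCI 2 or 5. It was 17 without TNF-CCI 2, 23 without Vehicle-sham 1 and 32 without Vehicle-sham 5. In those fits 6.20%, 7.08% and 5.93% of all genes were called lower. The size of the difference rested on Vehicle-sham 2 and 3. Without Vehicle-sham 2 the members' median was -0.12, and at an unadjusted p under 0.05 no member was lower and 1 (Rpl10l) was higher (edgeR), with 0 calls. Without Vehicle-sham 2 and 3 the median turned to 0.19.

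Rpl36a, a large-subunit protein near the tRNA exit site (mRatBN7.2 chromosome X, 97766179 to 97768892), had 111 to 511 CPM in the 20 CCI libraries, with a median of 207 CPM, against 139, 1905, 737, 205 and 77.9 CPM in Vehicle-sham libraries 1 to 5. Vehicle-sham 2 and 3 were above every CCI library and Vehicle-sham 5 below every one, while Vehicle-sham 1 and 4 lay among them. Its log2 fold change was -1.39 ± 0.41 (SE; adjusted p = 0.046, edgeR), but -0.30 without Vehicle-sham 2 (adjusted p = 0.78, edgeR) and 0.75 without Vehicle-sham 2 and 3 (adjusted p = 0.34, edgeR).

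Rpl22l1, the paralog that Rpl22 represses in mouse (chromosome 2, 111754687 to 111756623), had 39 to 173 CPM in CCI libraries, with a median of 76.2 CPM, against 53.8, 486, 264, 82.2 and 32.6 CPM in Vehicle-sham 1 to 5. Its log2 fold change was -1.21 ± 0.36 (SE; adjusted p = 0.046, edgeR), but -0.44 without Vehicle-sham 2 (adjusted p = 0.60, edgeR) and 0.51 without Vehicle-sham 2 and 3. Rpl22 itself, an RNA-binding protein of the large subunit, had 75.2 to 237 CPM in CCI libraries and 80.2, 233, 202, 120 and 68.7 CPM in Vehicle-sham 1 to 5, with a log2 fold change of -0.24 ± 0.23 (adjusted p = 0.55, edgeR). Both paralogs were highest in Vehicle-sham 2, Vehicle-sham 3 and TNF-CCI 2.

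Rps10, a small-subunit protein in which mutations cause Diamond-Blackfan anaemia in people (chromosome 20, 5694313 to 5698922), had 141 to 257 CPM in CCI libraries, with a median of 176 CPM, against 147, 609, 329, 222 and 155 CPM in Vehicle-sham 1 to 5. Its log2 fold change was -0.68 ± 0.20 (SE; adjusted p = 0.045, edgeR), but -0.20 without Vehicle-sham 2 (adjusted p = 0.60, edgeR) and 0.083 without Vehicle-sham 2 and 3. Rpl31l4 (chromosome 12, 16893111 to 16893551) and Rps18l1 (chromosome 10, 101204519 to 101205067) are single-exon copies that carry the names of Rpl31 and Rps18, so reads may be split with these. Rpl31l4 had 13.2 to 45.8 CPM in CCI libraries against 16.5, 169, 76.3, 26.7 and 9.36 CPM in Vehicle-sham 1 to 5 (log2 fold change -1.26 ± 0.36 SE, adjusted p = 0.042, edgeR). The fold change was -0.36 without Vehicle-sham 2 (adjusted p = 0.67, edgeR) and 0.52 without Vehicle-sham 2 and 3. Rpl31 had a log2 fold change of -0.98 ± 0.33 and missed the threshold (adjusted p = 0.066, edgeR).

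Rps18l1 had 2.71 to 5.38 CPM in CCI libraries, against 4.53, 12.2, 6.12, 6.19 and 3.98 CPM in Vehicle-sham 1 to 5 (log2 fold change -0.63 ± 0.17 SE, adjusted p = 0.037, edgeR). All 20 CCI libraries were below the Vehicle-sham mean of 6.60 CPM, which Vehicle-sham 2 alone exceeded. Without that library the fold change was -0.27 (adjusted p = 0.39, edgeR).

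**Figure D4:**
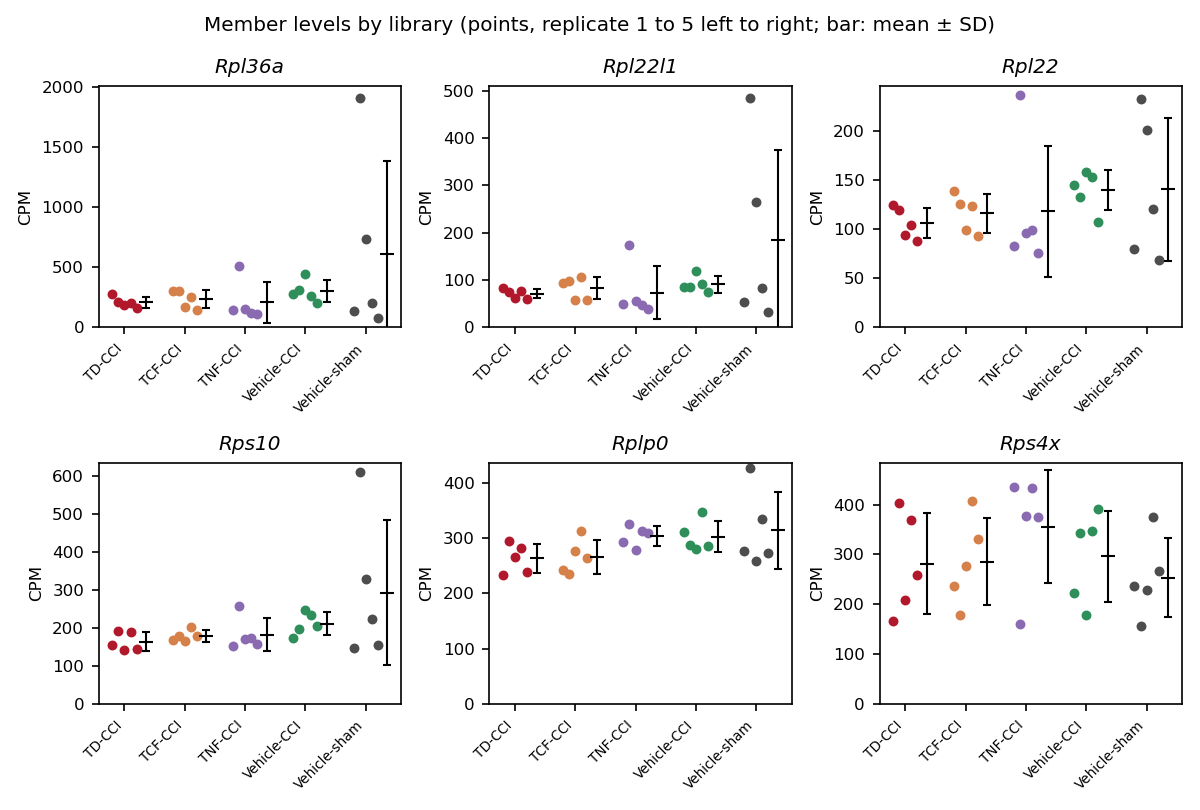
Points are CPM of 6 members in each library, by group, with the mean and SD beside them; the vertical axes start at 0. Rpl36a, Rpl22l1, Rpl22 and Rps10 were highest in Vehicle-sham 2, Vehicle-sham 3 or TNF-CCI 2, Rplp0 varied little (233 to 427 CPM), and Rps4x was lowest in Vehicle-sham 2 and TNF-CCI 2.

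Rps27a, Rps6, Rpl5 and Rpl11 did not pass. Rps27a had 437 to 1954.5 CPM in CCI libraries against 554, 5475, 2866, 880 and 309 CPM in Vehicle-sham 1 to 5 (log2 fold change -1.20, adjusted p = 0.059, edgeR). Rps6, the target of S6 kinase, had 528 to 982 CPM in CCI libraries against 544, 319, 1018, 943 and 450 CPM in Vehicle-sham 1 to 5 (0.11, adjusted p = 0.77, edgeR). Rps6 was the lowest of all 25 libraries in Vehicle-sham 2 and the highest in Vehicle-sham 3, whereas most members were high in both. Rpl5 and Rpl11, which carry 5S rRNA and bind Mdm2, stood at -0.35 and -0.11 (adjusted p = 0.30 and 0.72, edgeR).

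The stalk proteins had values of -0.15 in Rplp0, -0.51 in Rplp1 and -0.01 in Rplp2 (adjusted p = 0.41, 0.24 and 0.96, edgeR). Rpsa, the laminin receptor precursor of the small subunit, stood at -0.31 and Rpl13a, a common reference gene, at -0.55 (adjusted p = 0.28 and 0.14, edgeR). Rpl38, needed for patterning of the mouse skeleton, stood at -0.43 and Rpl10, which joins the large subunit late, at -0.35 (adjusted p = 0.20 and 0.19, edgeR). Among the remaining named members, Rpl39 stood at -0.74, Rpl37 and Rpl36al at -0.51, Rpl41 at -0.34, Rpl7l1 at -0.27, Rps27l at -0.15, Rps29 at -0.10, Rpl3 at -0.09 and Rpl3l at 0.04, and none passed.

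The members farthest above the members' median were Rpl10l (0.82), Rps4y2 (0.37) and Rps4x (0.26), and those farthest below Rpl39l (-1.72), Rpl36a and Rpl31l4. Rpl10l and Rpl39l had at most 121 and 141 counts in a library. Rps4x, the X-linked S4 protein, had 161 to 435 CPM in CCI libraries and 156 to 375 CPM in Vehicle-sham. It was above every Vehicle-sham library in 7 of 20 CCI libraries and below every one in 0 (adjusted p = 0.52, edgeR).

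No member passed in any single CCI group over sham. In Vehicle-CCI over Vehicle-sham 0% of all genes were called, and 1 member (Rps18l1) against 6.02% of genes was lower at an unadjusted p under 0.05 (edgeR). The members' median was -0.20. In TD-CCI over Vehicle-sham 0% of genes were called, 42 members against 9.66% of genes were lower at that p, and the median was -0.53. In TCF-CCI over Vehicle-sham 0.0142% of genes were called lower, 28 members against 11.7% of genes were lower at that p, and the median was -0.43. In TNF-CCI over Vehicle-sham 0.864% of genes were called lower and 1.71% higher, and the members' median was -0.39. At that p 29 members against 10.6% of genes were lower, and 1 (Rpl10l) against 9.41% was higher. The members of smallest p were Rps18l1 (-0.51), Rpl22l1 (-1.02) and Rps15al2 (-0.73) in Vehicle-CCI, and Rps18l1 (-0.85), Rps12l2 (-1.54) and Rpl35 (-0.66) in TD-CCI. They were Rps18l1 (-0.71), Rpl7l1 (-0.39) and Rpl28 (-0.57) in TCF-CCI, and Rps15al2 (-1.31), Rpl31l2 (-1.55) and Rps15al4 (-0.70) in TNF-CCI, all log2 fold changes over Vehicle-sham that did not pass. DESeq2's Wald test called 1 member lower in TD-CCI (Rps18l1) and 2 in TNF-CCI over Vehicle-sham (Rpl31l2 and Rpl31l4), and 0 in the other 2 groups. The share of all genes that this test called in these comparisons is not given here, so the counts have no background.

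These 4 comparisons share the 5 sham libraries, and each median moved with them. Without Vehicle-sham 2 and 3 the medians were 0.41 in Vehicle-CCI, 0.11 in TD-CCI, 0.14 in TCF-CCI and 0.19 in TNF-CCI, all above 0. In TNF-CCI over Vehicle-sham, where all libraries gave 0, 19 members passed without TNF-CCI 2, 14 without Vehicle-sham 5 and 2 without Vehicle-sham 1. The shares of all genes called in those fits are not given here. With all libraries the smallest adjusted p (edgeR) was 0.070, in TNF-CCI, for Rps15al2, a single-exon copy at 0.237 CPM on average. In the authors' deposited table, 0 of 98 or 99 members listed had an adjusted p under 0.05 in each of the 4 comparisons. The medians of their deposited log2 fold changes over the 92 members were -0.21 in Vehicle-CCI, -0.55 in TD-CCI, -0.43 in TCF-CCI and -0.40 in TNF-CCI.

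**Figure D5:**
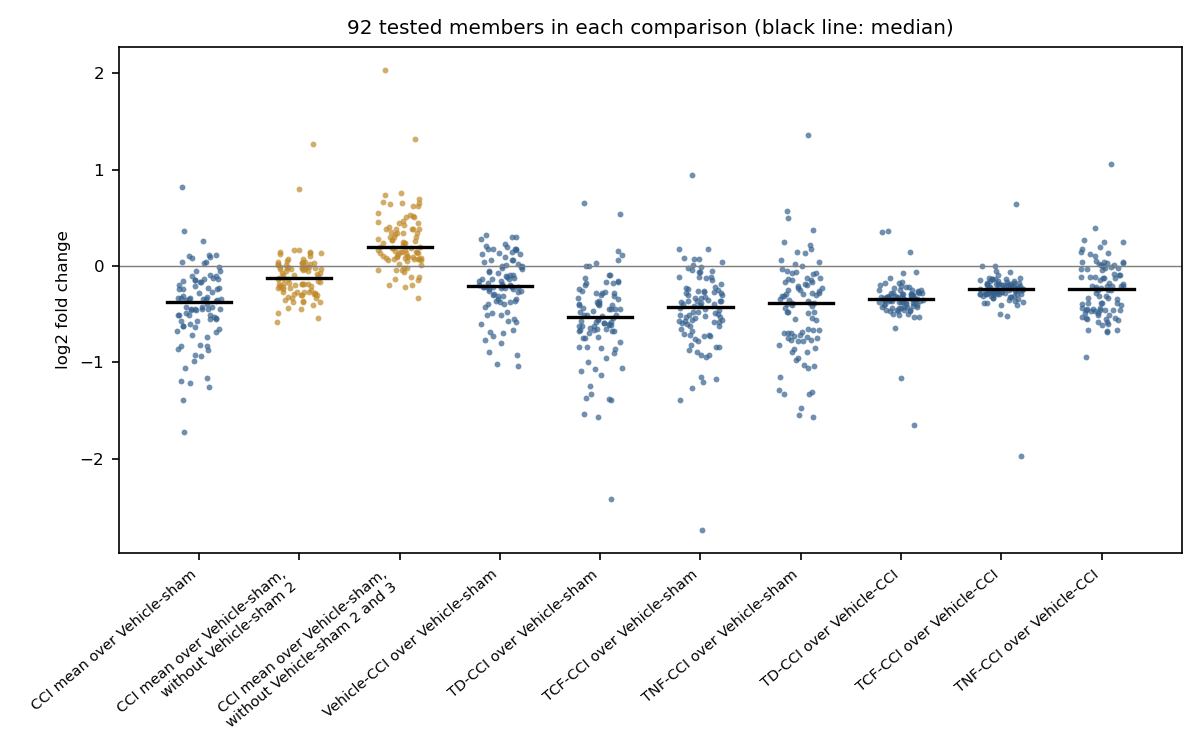
Points are the log2 fold changes of the 92 tested members in each comparison and black lines their medians; the columns in ochre repeat the mean of the CCI groups without Vehicle-sham 2, and without Vehicle-sham 2 and 3. The median of -0.38 moves to -0.12 and 0.19 in the ochre columns, and the comparisons over Vehicle-CCI, on the right, have medians below 0.

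Set against injured rats on vehicle, members were slightly lower in all 3 supplement groups, and none passed the test. In TD-CCI over Vehicle-CCI 89 of 92 members were below 0, with a median of -0.34, against -0.01 over all genes. In TCF-CCI over Vehicle-CCI 89 were below 0, with a median of -0.24 (all genes -0.03), and in TNF-CCI over Vehicle-CCI 71 were, with a median of -0.24 (all genes -0.0033). The 3 comparisons share the Vehicle-CCI libraries, and 0% of all genes passed in each. At an unadjusted p under 0.05, 1, 0 and 4 members were lower, against 0.76%, 0.793% and 1.77% of all genes, and 1 (Rpl10l) was higher in TNF-CCI, against 1.69% of genes (edgeR). The lower ones were Rps12l2 in TD-CCI and, in TNF-CCI, Rps15al4, Rpl5l1, Rps15a and Rpl34. DESeq2's Wald test called 0 members in each. No sham library enters these differences, and over the fits that left out a library in turn the medians ran from -0.41 to -0.29 in TD-CCI, from -0.30 to -0.19 in TCF-CCI and from -0.36 to -0.14 in TNF-CCI.

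The groups overlapped library by library. The median deviation of the members from their own mean over the 25 libraries was -0.21, 0.06, -0.38, 0.03 and -0.35 in TD-CCI 1 to 5, -0.02, -0.03, -0.22, 0.16 and -0.22 in TCF-CCI 1 to 5, and -0.34, 0.42, -0.13, -0.07 and -0.35 in TNF-CCI 1 to 5. In Vehicle-CCI 1 to 5 it was 0.07, 0.27, 0.21, 0.30 and -0.0048. TD-CCI 1, 3 and 5, TCF-CCI 1, 2, 3 and 5 and TNF-CCI 1, 3, 4 and 5 were below every Vehicle-CCI library. TD-CCI 2 and 4 and TCF-CCI 4 lay among them, and TNF-CCI 2 above them. The mitochondrial rRNA share averaged 6.59 ± 0.93% in TD-CCI, 7.57 ± 1.69% in TCF-CCI, 4.87 ± 3.41% in TNF-CCI and 7.89 ± 1.46% in Vehicle-CCI (SD, n = 5 each). In a fit with the share as a covariate the medians over Vehicle-CCI were -0.25 in TD-CCI, -0.22 in TCF-CCI and -0.07 in TNF-CCI, where 54 of 92 were below 0. With the trend on Length removed from each library, the medians were -0.23 in TD-CCI and -0.16 in TCF-CCI. These were the values nearest 0 among the alternatives to the processing for TD-CCI and TCF-CCI. The TNF-CCI median in that fit is not given here.

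In TD-CCI over Vehicle-CCI, 3 members had no overlap between groups, where 0.275% of all genes were lower with no overlap. Rps2, a small-subunit protein at the mRNA entry side, had 238, 324, 252, 295 and 288 CPM in TD-CCI 1 to 5, against 342, 413, 388, 387 and 346 CPM in Vehicle-CCI 1 to 5. Every TD-CCI library was below every Vehicle-CCI library, and the log2 fold change was -0.43 ± 0.26 (SE; adjusted p = 1.0, edgeR). Rpl37, a zinc-finger protein of the large subunit, was at 85.5 to 112 CPM in TD-CCI and 113 to 152 CPM in Vehicle-CCI, and Rps12l2, a single-exon copy, at 0.082 to 0.235 CPM in TD-CCI and 0.32 to 0.471 CPM in Vehicle-CCI. By edgeR's test Rps12l2 (-1.16) ranked first in that comparison, with an adjusted p of 1.0.

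Rpl28, a large-subunit protein absent from yeast, was at 116, 141, 131, 143 and 136 CPM in TCF-CCI 1 to 5, against 144, 155, 167, 212 and 148 CPM in Vehicle-CCI 1 to 5 and 145, 377, 155, 162 and 150 CPM in Vehicle-sham 1 to 5. It was the only member below every library of the other group in TCF-CCI over Vehicle-CCI (background 0.266%) and in TCF-CCI over Vehicle-sham (background 1.82%). Its log2 fold change over Vehicle-CCI was -0.31 ± 0.21 (adjusted p = 1.0, edgeR). Rpl39l (-1.97), Rpl5l1 (-0.52) and Rpl8 (-0.26) had the smallest p there. In TNF-CCI over Vehicle-CCI the smallest p belonged to Rps15al4 (-0.67 ± 0.23), Rpl10l (1.06 ± 0.46) and Rpl5l1 (-0.69 ± 0.30), single-exon copies with adjusted p of 1.0 by edgeR. No member was without overlap there.

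Genes that work beside the ribosome were counted in the same comparison of the 4 CCI groups over sham, from lists chosen with earlier results known. The shares called over all genes, 3.68% lower and 2.24% higher, are the background of each count below, and without Vehicle-sham 2 only 7 genes of 21228 were called lower and 7 higher. Of the 3 ribosomal proteins outside the symbol rule none passed with edgeR, and Fau stood at -0.19 and Rack1, the scaffold on the small subunit, at -0.08. Of 73 mitochondrial ribosomal proteins, 4 fell and 0 rose, with a median of -0.26. Among them Mrps18c averaged 55.9 ± 20.9 CPM in CCI libraries (SD, n = 20) and 139 ± 147 CPM in Vehicle-sham (n = 5), and Mrps7 27.8 ± 3.29 CPM in CCI libraries and 39.4 ± 19.4 CPM in Vehicle-sham.

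Of 33 elongation and initiation factors, 2 fell and 0 rose, with a median of -0.21. Eif5a, which relieves stalled peptide bond formation, averaged 172 ± 26.5 CPM in CCI libraries and 268 ± 134 CPM in Vehicle-sham (SD, n = 20 and 5). Eif2s1, the subunit of eIF2 that stress kinases phosphorylate, averaged 61.5 ± 9.83 CPM in CCI libraries and 83.1 ± 22.8 CPM in Vehicle-sham. Eef1a1, Eef1a2, Eef2, Tpt1 and Pabpc1, most of them TOP mRNAs too, had log2 fold changes of -0.23, -0.28, -0.09, -0.19 and -0.31 and did not pass.

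Of 30 genes of ribosome assembly and rRNA synthesis, 0 passed and the median was 0.03, with Npm1 at -0.17. Of 23 genes of mTOR and S6 kinase signalling, 1 fell: Pdpk1, the kinase that primes S6 kinase and Akt, at 125 ± 17.5 CPM in CCI libraries and 171 ± 19.1 CPM in Vehicle-sham. It was below every Vehicle-sham library in 19 of 20 CCI libraries (adjusted p = 0.026, edgeR). Mtor and Larp1 had values of 0.09 and 0.16 and did not pass. Of 24 nuclear genes of oxidative phosphorylation, 3 fell (Ndufa4, Sdhb and Ndufs6) and 0 rose, with a median of -0.42. No test of a difference between these lists was made.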

How the data were processed

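Deposited read counts per gene, not normalised by the authors, came with a Length for each gene in 25 libraries of 5 groups. STAR, Salmon, featureCounts, DESeq2 and the build mRatBN7.2 are listed in the submitters' processing notes, with no strand setting or rule for reads shared by copies. The authors also deposited log2 fold changes with p-values for each CCI group against control, per the file headers. Of 34322 genes, 7 with empty cells were left out.

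One edgeR 4.0.16 fit in R 4.3.3 (TMM, filterByExpr, robust quasi-likelihood, Benjamini-Hochberg, 21064 genes, threshold 0.05) covered all libraries and 8 comparisons, and was tested on simulated data. Log2 CPM used a prior count of 2. Libraries within a group differed by far more than counting noise (chi-square per degree of freedom 24.8 to 732). None was thus a second sequencing of another library, but this cannot tell separate animals from separate libraries of the same animal. The spread between libraries sets the precision. Alternatives used limma 3.58.1 and DESeq2 1.42.0.

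The members and lists were chosen with earlier results of these data known. Named were members of known role, those called or of smallest p, those farthest from the median, extremes of level, spread and Length, and translation genes with the smallest p in each list. Rps2, Rps15a, Rps24, Rpl19 and Rpl34 were chosen after their values were seen. A few genes that the rule names are not reported here.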

Additional observations from a re-analysis of the deposited data

Results flagged for a closer look

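In 80 sets of 5 libraries (16 measures by 5 groups), 16 held a library far from the others by Dixon's criterion (gap over range above 0.71). Chance gives about 1 in 20 for a single set. The measures move together and include members picked for their results in these data, so the 16 cannot be set against that rate. TNF-CCI 2 accounted for 11: the highest of its group in the members' summed level (46247 CPM), in mitochondrial rRNA (10.9%), and in Rpl26 (2479 CPM), Rps27a (1954.5 CPM), Rpl36a (511 CPM), Rps10 (257 CPM), Rpl22 (237 CPM), Rpl22l1 (173 CPM), Rpl31l4 (45.7 CPM) and Rpl39l (2.97 CPM). It was the lowest in Rps4x, at 161 CPM.

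Vehicle-sham 2 stood apart in Rps18l1 (12.2 CPM) and Rpl39l (8.02 CPM), and Vehicle-CCI 3 in Rpl39l (3.51 CPM). Rpl10l, a single-exon copy of few counts, was far above its group in TD-CCI 1 (1.43 CPM) and in TNF-CCI 5 (2.49 CPM).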

How the results depend on the processing

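There were 16 alternatives to the processing and 25 fits without 1 library. Directions turned with the mitochondrial rRNA covariate, with voom quality weights and without Vehicle-sham 2 and 3 (with or without 5), and in Vehicle-CCI without Vehicle-sham 2. For all CCI groups over Vehicle-sham, members called numbered 19 at a threshold of 0.1, 9 with DESeq2, 3 among 79 standard members, 3 with a replicate block, 2 with tag number as covariate, 2 with no filter, and 0 with voom quality weights, with the mitochondrial rRNA share as covariate, without Vehicle-sham 2 and 3, or without Vehicle-sham 2, 3 and 5 (chosen after seeing the data). Of all genes, the share called lower in that comparison was 4.56% with DESeq2, 5.32% with the block, 7.33% with tag number and 4.51% with no filter. It was 3.12% with voom, 0.337% with the rRNA covariate and 0% without Vehicle-sham 2 and 3, with or without 5. With the trend on Length removed from each library, 5 members and 5.20% of all genes were called lower, and the members' median was -0.29. TD-CCI over Vehicle-sham had 1 call with DESeq2, and TNF-CCI 4 at 0.1, 2 with DESeq2, 2 with the block and 1 (Rpl10l, higher) with voom. No share of all genes is given here for the threshold of 0.1, the 79 standard members or these TD-CCI and TNF-CCI counts. Such counts cannot be read as particular to the members.

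Medians over Vehicle-sham for all CCI, Vehicle-CCI, TD-CCI, TCF-CCI and TNF-CCI were 0.074, 0.24, -0.0069, 0.0044 and 0.15 with the rRNA covariate, 0.19, 0.41, 0.11, 0.14 and 0.19 without Vehicle-sham 2 and 3, and 0.050, 0.24, -0.061, -0.0024 and 0.069 without 2, 3 and 5. With voom the median was 0.18 for Vehicle-CCI, against -0.12 for TD-CCI and -0.041 for TCF-CCI. Rpl22l1, Rpl36a and Rpl31l4 turned to 0.24, 0.46 and 0.28 with the covariate, to 0.51, 0.75 and 0.52 without 2 and 3, and to 0.23, 0.46 and 0.22 without 2, 3 and 5. Rps10 turned to 0.083 and 0.00402 in the last pair, and voom gave 0.14 in Rpl36a and 0.056 in Rpl31l4. Of 53 uncalled values of named members, 24 changed sign with the covariate, 24 without 2 and 3, 25 without 2, 3 and 5 and 15 with voom. The cause was not tested.

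Leaving out 1 library gave 0 to 32 calls for all CCI groups, 0 to 19 for TNF-CCI over Vehicle-sham and 0 elsewhere. Medians ran from -0.53 to -0.12 for all CCI groups and, for Vehicle-CCI, from -0.34 to 0.078 (without Vehicle-sham 2).

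Same-numbered libraries of different groups had correlations of -0.32 to 0.44 (median 0.12, 27 of 50 over 0.1), against a median of -0.02 and 45 of 200 over 0.1 for different numbers. The numbers were not taken as pairing because not every pair was over 0.1, a rule that does not exclude pairing. Of the 25 libraries 11 were closest to their own number, a hint from the data only. Within a group the numbers mostly rise with tag number, the number that opens a library's label. Pairing and label order therefore cannot be told apart here. The block moved calls from 5 to 3, losing Rpl22l1, Rpl31l4 and Rpl36a and gaining Rps15al2. Restricting the fit to the groups compared gives no separate value for all CCI groups. Members under 10 CPM are limited by their counts.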
